A study of Mus musculus with 5 samples.

Results

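The subject here is what buthionine sulfoximine (BSO) did to the liver transcriptome of mice that also received rosiglitazone (RGZ). The array of livers given BSO at 700 mg/kg with RGZ at 300 mg/kg was set against the array of livers given RGZ at 300 mg/kg without BSO. Both groups were 6-week-old female BALB/c mice dosed intraperitoneally, with livers collected after 6 hr. For each group the RNA of 6 livers had been combined into 1 pool, and that pool was hybridised to 1 single-colour Agilent array. The 3 other arrays of the study carried BSO at 700 mg/kg with troglitazone (TGZ) at 300 mg/kg, TGZ at 300 mg/kg, and vehicle, in mice of the same strain, sex and age. No array held BSO without a thiazolidinedione, so the BSO values below describe BSO combined with such a drug and not BSO alone. A gene name was kept when its brightest probe was well above background on at least 1 of the BSO plus RGZ and RGZ arrays, by the scanner software's call. This left 21262 of the 36870 gene names on the array.

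BSO inhibits glutamate-cysteine ligase, the enzyme that makes the first bond of glutathione. Glutathione is the most abundant small thiol of hepatocytes and is consumed when reactive metabolites and peroxides are detoxified. When thiols are oxidised or occupied, the sensor KEAP1 releases the transcription factor NRF2, which binds antioxidant response elements in the promoters of detoxifying and thiol-recycling genes. Unfolded proteins in the endoplasmic reticulum switch on a separate set of chaperone and degradation genes, and shortage of amino acids acts through the factor ATF4. RGZ is a thiazolidinedione, a class of drugs that activate the nuclear receptor PPAR gamma.

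Signals are given on a scale on which the 75th percentile of each array is 100. The precision of every value is limited by the number of arrays, since no group had a second pool. Differences between groups were therefore not tested. Each interval covers 95% of the spot error that the scanner software assigns, typically a factor of 1.32 either way, and leaves out the variation between animals and pools. Per the array names in the file headers, the array of BSO plus RGZ lay in the second row of the slide and the other 4 in the first, so slide position and group cannot be told apart. Well above background were 53.8% of probes with BSO plus RGZ and 55.2% with RGZ. Hepatocyte markers, 17 of 17 with a value, had a median log2 difference of -0.01 between these groups, with 0.07 under median scaling and 0.02 under spike-in scaling. The median over all measured genes was 0.01, against 0.09 under median scaling and 0.04 under spike-in scaling, and the medians of lists near 0 move with that shift. In these bulk samples fewer cells of a type and less RNA per cell cannot be told apart.

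Most of the transcriptome differed little between BSO plus RGZ and RGZ, and a small set of genes differed at least 2-fold. Log2 signals of both arrays correlated across probes with r = 0.992, and 79.8% of the 19866 genes measured on both arrays lay within 1.25-fold. The SD of the log2 differences was 0.29, against a median measurement SD of 0.20 from the error that the scanner software assigns. Replicate spots within an array varied less. For the 300 probes in 10 or more spots, the median SD of log2 signal was 0.043 with BSO plus RGZ and 0.042 with RGZ. With BSO plus RGZ, 110 genes were at least 2-fold higher than with RGZ (0.517% of all genes with a value) and 151 were at least 2-fold lower (0.710%), together 1.23%. At least 4-fold higher were 5 genes (0.0235%) and at least 4-fold lower 7 (0.0329%), together 0.0564%. Of the 261 genes, 105 rest on a bound, because the gene was well above background on 1 of the arrays alone. The balance of the counts depended on the scaling, with 154 higher and 101 lower under median scaling and 133 higher and 110 lower under quantile normalization. Just inside the 2-fold line were Notch3 at 2.002-fold and Sdf2l1 at 2.003-fold higher, and just outside it were Il1r2 at 1.997-fold higher and Slc2a4 at 1.997-fold lower.

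**Figure D1:**
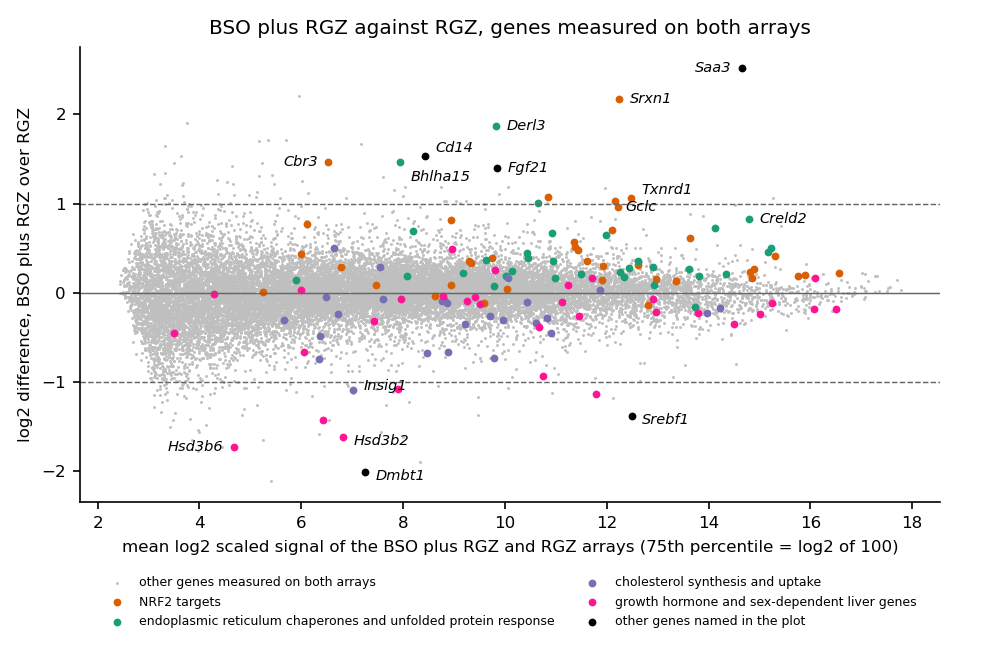
Log2 difference of BSO plus RGZ over RGZ (vertical axis) against the mean log2 scaled signal of both arrays (horizontal axis), 1 point per gene measured on both arrays, with members of 4 gene lists and a few other named genes in colour or black. Dashed lines mark 2-fold. Srxn1, Cbr3 and Derl3 stand above the upper line, and the Hsd3b genes, Srebf1 and Dmbt1 below the lower one.

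The enzyme that BSO inhibits was among the genes whose transcript was higher. Gclc encodes the catalytic subunit of glutamate-cysteine ligase. Its signal was 6536 with BSO plus RGZ and 3207 with RGZ, 5389 with BSO plus TGZ and 5208 with TGZ, and 5140 with vehicle. The difference on RGZ was 2.04-fold (interval 1.54 to 2.69). The RGZ array held the lowest of the 5 Gclc signals and the BSO plus RGZ array the highest. With normexp, a model-based background correction, the log2 difference was 0.97 in place of 1.03. Normexp was run with an offset of 50 added to every spot, which by itself shrinks differences of dim spots.

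The other genes of glutathione metabolism moved less. Of 16 genes for glutathione synthesis, recycling and breakdown, 14 had a value, 1 was at least 2-fold higher, none was at least 2-fold lower, and the median log2 difference was 0.12, against 0.01 over all measured genes. Gsr, glutathione reductase, was at 5643 with BSO plus RGZ and 3469 with RGZ, 1.63-fold higher (1.23 to 2.15). Gclm, the regulatory subunit of the ligase, was at 6987 and 5637, 1.24-fold (0.939 to 1.64), and Gss, which adds glycine in the next step, at 4585 and 4062, 1.13-fold (0.856 to 1.49). The intervals of Gclm and Gss include no difference. Among genes of glutathione breakdown, Chac2 was at 379.5 with BSO plus RGZ and 541.2 with RGZ, a log2 difference of -0.51, and Chac1 at 908.5 and 891, a log2 difference of 0.03. The remaining log2 differences ran from -0.15 for Anpep, an aminopeptidase that trims extracellular peptides, to 0.54 for Ggt5, a gamma-glutamyl transferase family member. Oplah was at 0.05, Ggct at 0.12, Cndp2 at 0.13, Dpep1 at 0.12, Lancl1 at -0.10 and Ggt6 at -0.02. Slc7a11, which imports cystine, and Ggt1, which starts extracellular breakdown of glutathione, were not well above background on either array.

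NRF2 targets as a group were higher with BSO plus RGZ. Of 40 listed genes 38 had a value, 5 were at least 2-fold higher and none at least 2-fold lower, and 35 of the 38 lay above 0, compared with 49.7% of all genes with a value. The median log2 difference was 0.32. The gene farthest up was Srxn1, sulfiredoxin 1, which restores overoxidised peroxiredoxins. Its probe lies at chr2:151937009-151937068 in mm9. Srxn1 signal was 10290 with BSO plus RGZ and 2281 with RGZ, 10750 with BSO plus TGZ and 11500 with TGZ, and 2368 with vehicle. The difference on RGZ was 4.51-fold (3.42 to 5.95). The arrays fell into 2 levels, with RGZ and vehicle low and the other 3 high.

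The 4 other NRF2 targets past 2-fold were a carbonyl reductase, a heme transporter, a thioredoxin reductase and Gclc. Cbr3, which reduces carbonyls, was at 153.3 with BSO plus RGZ and 55.4 with RGZ, 82.7 with BSO plus TGZ and 60.0 with TGZ, and 50.6 with vehicle, a difference of 2.77-fold on RGZ (2.09 to 3.66). Slc48a1, which moves heme across endolysosomal membranes, was at 2663 and 1262, 1652 and 1299, and 1275 on the same arrays, 2.11-fold higher (1.60 to 2.78). Txnrd1, the cytosolic thioredoxin reductase, was at 8213 and 3932, 6448 and 6139, and 3064, 2.09-fold higher (1.58 to 2.76). For Cbr3, Slc48a1 and Txnrd1 the BSO plus RGZ array held the highest of the 5 signals. Just under the line stood Ugdh, which makes UDP-glucuronic acid, at 6704 with BSO plus RGZ and 3435 with RGZ (log2 difference 0.96). Listed members named for their role were Pgd of the pentose phosphate pathway at 0.82, the quinone reductase Nqo1 at 0.77 and the autophagy receptor Sqstm1 at 0.62. Hmox1, heme oxygenase, was at 979.5 with BSO plus RGZ and 748.6 with RGZ, a log2 difference of 0.39 (1.31-fold, 0.992 to 1.73). The transcripts of the regulators themselves were at 0.07 for Nfe2l2, which encodes NRF2, and 0.23 for Keap1. At the low end of the list were Abcc3 at -0.14 and Ces1g at -0.12.

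Promoter letters were read for the antioxidant response element core because several of these genes moved together. The motif searched was TGACNNNGC on both strands in the 250 bases before the RefSeq start (build GRCm38.p6). Of 34 list genes with a promoter entry 7 held it (20.6%), against 11.5% of the 27025 genes with an entry. The 7 were Abcc2 (log2 difference 0.04), Abcc4 (0.43), G6pdx (0.28), Gclm (0.31), Prdx1 (0.19), Txnrd1 (1.06) and Ugdh (0.96). Of the 5 NRF2 targets past 2-fold, Txnrd1 held it, Srxn1 and Cbr3 had an entry without these letters in the window, and Gclc and Slc48a1 were not read. A match is a description of the letters and not a test of binding, and the shares above were computed without the array values. The promoter of Ugdh, which had 2 matches 132 and 94 bases before the start, is printed whole on the gene's strand, at chr5:65435843-65436092 on the minus strand. For Txnrd1 (chr10:82859094-82859142, plus strand) and Gclm (chr3:122245403-122245451, plus strand) the match is printed with its flanks. Capitals mark the match, read on either strand.
Ugdh: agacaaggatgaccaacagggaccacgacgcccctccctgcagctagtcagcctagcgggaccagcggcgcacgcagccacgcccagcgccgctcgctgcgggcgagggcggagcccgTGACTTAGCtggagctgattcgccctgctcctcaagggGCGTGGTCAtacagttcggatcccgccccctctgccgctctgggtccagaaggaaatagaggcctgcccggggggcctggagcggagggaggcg
Txnrd1: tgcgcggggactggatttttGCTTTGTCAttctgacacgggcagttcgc
Gclm: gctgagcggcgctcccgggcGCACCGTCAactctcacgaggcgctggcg
Txnrd1 and Gclm hold the core in the same reversed orientation, with 2.09-fold and 1.24-fold differences.

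For related thiol enzymes the list medians lay near 0. The thioredoxin and peroxiredoxin list had 2 of 24 members at least 2-fold higher, Srxn1 and Txnrd1, none at least 2-fold lower, and a median log2 difference of -0.03. That median was 0.06 under median scaling and 0.01 under spike-in scaling. Of 26 glutathione transferases and peroxidases with a value, 1 passed 2-fold upward and none downward, and the median of -0.02 turned to 0.07 under median scaling and 0.02 under spike-in scaling. The one past 2-fold was Gstp1, a pi class transferase, at 6012 with BSO plus RGZ and 2657 with RGZ, 2537 with BSO plus TGZ and 2140 with TGZ, and 2650 with vehicle. It was 2.26-fold higher on RGZ (1.72 to 2.99), while Gstp2, its close paralog, was 1.67-fold higher (1.27 to 2.21). Whether the probes of these near-identical transcripts bind each other's RNA was not tested, so the values of each gene are uncertain. Gpx2 and Gpx3, glutathione peroxidases, were at log2 differences of 0.86 and 0.57. At the other end, Gstt3 was at -0.38 and Gpx8 at -0.34. Among genes of the methionine cycle and cysteine supply, 20 with a value, Gclc was the one past 2-fold, none was at least 2-fold lower, and the median was -0.06 (0.03 under median scaling). Cth, which releases cysteine from cystathionine, was at 1807 with BSO plus RGZ and 2761 with RGZ, 7318 with BSO plus TGZ and 9220 with TGZ, and 5419 with vehicle, a log2 difference of -0.61 on RGZ.

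Endoplasmic reticulum chaperone genes were also higher as a group. Of 33 listed genes, all with a value, 3 were at least 2-fold higher and none at least 2-fold lower, 31 lay above 0, and the median log2 difference was 0.28. Derl3, a component of the machinery that removes misfolded proteins from the reticulum, was at 1736 with BSO plus RGZ and 476.7 with RGZ, 137.6 with BSO plus TGZ and 73.9 with TGZ, and 1665 with vehicle. It was 3.64-fold higher on RGZ (2.76 to 4.8). The BSO plus RGZ signal stood next to that of vehicle, and RGZ and both TGZ arrays were lower. Bhlha15, which directs the build-up of secretory machinery in exocrine cells, was at 408.6 with BSO plus RGZ and 148.2 with RGZ, 8.32 with BSO plus TGZ and 12.7 with TGZ, and was not well above background with vehicle (1.67). It was 2.76-fold higher on RGZ (2.09 to 3.64), and both RGZ arrays were above all others. Sdf2l1, a cochaperone, was at 2278 with BSO plus RGZ and 1138 with RGZ, 2.003-fold higher (log2 difference 0.97 with normexp).

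Further members lay below the line but mostly in the same direction. Creld2, a disulfide isomerase, was at 38010 with BSO plus RGZ and 21420 with RGZ, 11580 with BSO plus TGZ and 10250 with TGZ, and 17130 with vehicle. It was 1.77-fold higher on RGZ (1.34 to 2.34). Members named for their role were the ubiquitin ligase Syvn1 at a log2 difference of 0.73, the chaperones Hyou1 at 0.69, Dnajb9 at 0.67 and Hspa5 at 0.50, and the secreted factor Manf at 0.65. The transcript of the regulator Xbp1 was at -0.16 and that of Atf6 at 0.22. Cytosolic heat shock genes, 19 with a value, had none past 2-fold in either direction and a median of 0.06, with Hspa1b at 0.89. Of the 31 proteasome subunits none passed 2-fold in either direction, yet 30 lay above 0 and the median was 0.21.

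The endoplasmic reticulum stress element, searched as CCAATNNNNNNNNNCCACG on both strands, is rare in promoters. It was found before the start of 35 of 27025 genes with an entry (0.130%) and of 9 of the 26 list genes with one (34.6%). These shares come from the letters and the choice of list genes, without the array values, so they do not describe an effect of BSO. The 9 were Derl3 (1.86), Creld2 (0.83), Syvn1 (0.73), Hspa5 (0.50), Hsp90b1 (0.46), Dnajc3 (0.24), Pdia6 (0.20), Calr (0.18) and Canx (0.08), with their log2 differences. All 9 lay above 0, and so did 31 of the 33 members of the list as a whole. The stretch before the start of Derl3 is printed whole because it is the member farthest up (chr10:75893148-75893397, plus strand), and the match of Creld2 with its flanks (chr15:88819500-88819558, plus strand). Capitals mark the match, which in both genes reads on the opposite strand.
Derl3: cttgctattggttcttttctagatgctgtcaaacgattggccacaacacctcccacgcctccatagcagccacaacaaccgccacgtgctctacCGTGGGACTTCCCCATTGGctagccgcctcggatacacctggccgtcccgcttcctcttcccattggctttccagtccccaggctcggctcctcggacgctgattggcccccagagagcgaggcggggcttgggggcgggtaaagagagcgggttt
Creld2: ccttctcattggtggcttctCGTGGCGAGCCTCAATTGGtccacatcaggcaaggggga
The match lies 156 bases before the start in Derl3 and 126 bases before it in Creld2.

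Genes of the integrated stress response lay on both sides of 0. Of 32 listed genes 29 had a value, 2 were at least 2-fold higher and none at least 2-fold lower, 19 lay above 0, and the median log2 difference was 0.08. Fgf21, a hormone that the liver secretes in fasting and stress, was at 1497 with BSO plus RGZ and 568.2 with RGZ, 410.4 with BSO plus TGZ and 316.7 with TGZ, and 83.3 with vehicle. It was 2.64-fold higher on RGZ (2.0 to 3.48), and all 4 treated arrays were above vehicle. Asns, asparagine synthetase, was at 67.5 and 27.1, 87.2 and 85.6, and 16.2 on the same arrays, 2.49-fold higher on RGZ (1.85 to 3.34), or 0.75 on the log2 scale with normexp. Mthfd2, a mitochondrial folate enzyme, was at 0.76 (0.32 with normexp) and the factor Ddit3 at 0.56, whereas the regulator Atf4 was at 0.21, Trib3 at 0.08 and Chac1 at 0.03. At the low end Slc7a5, a transporter of large neutral amino acids, was at -0.95 (-0.15 with normexp) with signals of 6.88 with BSO plus RGZ and 13.3 with RGZ, and Cth at -0.61.

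The ATF4 amino acid response element core, TGATGNAA, was found on either strand before the start of 9 of 28 list genes with an entry (32.1%) and of 3.91% of all genes with one. The array values did not enter these shares either. The 9 were Asns, Fgf21, Herpud1, Chac1, Pck2, Atf3, Nupr1, Vldlr and Slc7a11, and the 8 with a value had log2 differences from -0.60 for Vldlr to 1.40 for Fgf21. None of the 3 motifs overlapped another in any promoter. The stretch before the start of Fgf21 (chr7:45615491-45615740, minus strand) and the match of Asns with its flanks (chr6:7693210-7693252, minus strand) are printed because these are the 2 members past 2-fold. Capitals mark the match.
Fgf21: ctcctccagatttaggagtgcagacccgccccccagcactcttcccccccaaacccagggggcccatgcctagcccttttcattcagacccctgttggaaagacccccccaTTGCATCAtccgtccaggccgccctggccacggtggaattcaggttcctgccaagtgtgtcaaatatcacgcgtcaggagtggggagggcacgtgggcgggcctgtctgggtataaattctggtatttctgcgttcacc
Asns: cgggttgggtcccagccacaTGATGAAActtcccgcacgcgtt
Members with the motif stood on both sides of 0, with Asns at 1.32 and Vldlr at -0.60.

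**Figure D2:**
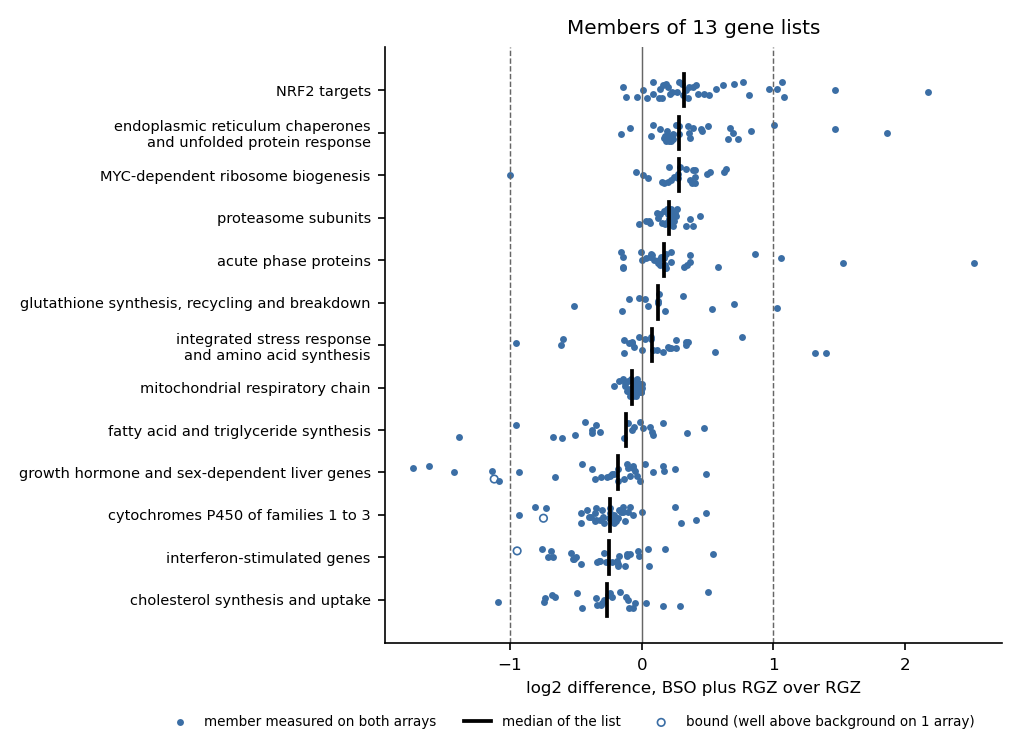
Log2 difference of BSO plus RGZ over RGZ for each member of 13 gene lists, with filled points for genes measured on both arrays, open points for bounds and a black line at the list median. Dashed lines mark 2-fold. Medians run from 0.32 for NRF2 targets to -0.26 for cholesterol synthesis and uptake.

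Among acute phase genes, 1 serum amyloid gene stood apart from its relatives. Of 31 acute phase genes with a value 3 passed 2-fold upward and none downward, 26 lay above 0, and the median log2 difference was 0.17. Saa3, a serum amyloid made by several cell types, had the largest measured difference of all genes with a value. Its probe lies at chr7:53967559-53967618 in mm9. Saa3 signal was 61500 with BSO plus RGZ and 10700 with RGZ, 7271 with BSO plus TGZ and 2249 with TGZ, and 264.3 with vehicle. The difference was 5.75-fold on RGZ (4.36 to 7.58). All 4 treated arrays were above vehicle, and BSO plus RGZ was the highest. Saa1 and Saa2, the main hepatic serum amyloids, were at log2 differences of 0.19 and 0.15, with Saa1 at 169200 and 148600.

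The other 2 acute phase genes past 2-fold were an endotoxin receptor and a siderophore-binding protein. Cd14, a co-receptor for lipopolysaccharide, was at 584.2 with BSO plus RGZ and 202.1 with RGZ, 13290 with BSO plus TGZ and 20940 with TGZ, and 85.1 with vehicle. It was 2.89-fold higher on RGZ (2.19 to 3.81). Lcn2, lipocalin 2, was at 57080 with BSO plus RGZ and 27360 with RGZ, 66220 with BSO plus TGZ and 85820 with TGZ, and 964.9 with vehicle, 2.09-fold higher on RGZ (1.58 to 2.75). Serpina3n, a protease inhibitor, was at 0.86 on the log2 scale. Neutrophil markers, 13 of 14 with a value, had a median of 0.40, with 10 above 0 and 3 below, 1 at least 2-fold higher (Lcn2 itself), none at least 2-fold lower, and Mmp9 not above background. Their summed signal was 69930 with BSO plus RGZ and 39530 with RGZ, and without Lcn2 12850 and 12180. The neutrophil markers S100a8 and S100a9 were at 0.44 and 0.45. In the other direction, the granule enzyme Mpo was at 10.4 with BSO plus RGZ and 16.7 with RGZ, a log2 difference of -0.67 (-0.06 with normexp). Prtn3, a neutrophil protease outside the list, was at 8.63 and 23.1, a difference of -1.42 (-0.38 with normexp). The part of neutrophils in the Saa3, Cd14 and Lcn2 differences was not tested. The median was 0.14 with normexp and 0.13 when both arrays had to be above background. Among cytokines and chemokines none of 28 was at least 2-fold higher and 1 was at least 2-fold lower, Cxcl10, an interferon-induced chemokine, at 60.7 with BSO plus RGZ and 125.1 with RGZ.

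Genes of sterol and fat synthesis were lower on balance. Of 25 cholesterol genes with a value none was at least 2-fold higher and 1 was at least 2-fold lower, 4 lay above 0, and the median log2 difference was -0.26. Insig1, which holds the sterol sensor in the reticulum, was at 88.3 with BSO plus RGZ and 188.2 with RGZ, 152.1 with BSO plus TGZ and 137.1 with TGZ, and 750.7 with vehicle. It was 2.13-fold lower on RGZ (1.61 to 2.82), or -0.84 on the log2 scale with normexp, and BSO plus RGZ had the lowest of the 5 signals. Sqle, squalene epoxidase, was at -0.74, Fdft1, squalene synthase, at -0.73 and Idi1 at -0.68, while Mvd was at 0.50.

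Srebf1, which encodes the lipogenic factor SREBP1, was the fatty acid list's only member past 2-fold. Srebf1 was at 3573 with BSO plus RGZ and 9326 with RGZ, 3339 with BSO plus TGZ and 1835 with TGZ, and 9119 with vehicle, 2.61-fold lower on RGZ (1.98 to 3.44). RGZ stood beside vehicle, and BSO plus RGZ beside BSO plus TGZ. Of 22 members with a value none was at least 2-fold higher, 7 lay above 0, and the median was -0.12. Thrsp, a regulator of lipogenesis, was at -0.96, the elongase Elovl6 at -0.68 and fatty acid synthase, Fasn, at -0.60. Genes of PPAR gamma and the lipid droplet had 1 of 20 past 2-fold upward and none downward, and a median of 0.18. That gene was Cidec, which enlarges lipid droplets, at 369.3 with BSO plus RGZ and 174.8 with RGZ, 2681 with BSO plus TGZ and 3690 with TGZ, and 69.0 with vehicle (log2 difference 1.08, or 0.95 with normexp). Pparg itself was at 0.28. Genes of fatty acid oxidation and other PPAR alpha targets, 36 in all, had none past 2-fold in either direction, and a median of -0.11.

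A family of steroid dehydrogenases and other sex-dependent liver genes were lower with BSO plus RGZ. Of 33 listed genes none was at least 2-fold higher, 6 were at least 2-fold lower, and the median log2 difference was -0.18. Of these 6, 4 were Hsd3b genes, which encode 3-beta-hydroxysteroid dehydrogenases or related reductases. Hsd3b2 was at 64.4 with BSO plus RGZ and 197.2 with RGZ, 108.0 with BSO plus TGZ and 78.7 with TGZ, and 423.9 with vehicle, 3.06-fold lower on RGZ (2.32 to 4.05). Hsd3b3 was at 52.3 and 140.5, 89.8 and 72.1, and 327.2 on the same arrays, 2.69-fold lower (2.03 to 3.56). Hsd3b6 was at 14.03 and 46.6, 30.8 and 27.6, and 127.4, 3.32-fold lower (2.39 to 4.62), or -0.71 on the log2 scale with normexp. Hsd3b5 was not well above background with BSO plus RGZ (5.54) or with TGZ (5.68), and was at 12.03 with RGZ, 18.4 with BSO plus TGZ and 168.6 with vehicle. By that dim signal Hsd3b5 was 2.17-fold lower on RGZ, which is a plain ratio and not a minimum, or -0.17 on the log2 scale with normexp. Vehicle was the highest array for all 4 genes, and BSO plus RGZ was the lowest for Hsd3b2, Hsd3b3 and Hsd3b6. The 4 probes lie on chromosome 3, and the longest run of bases shared by any pair of them was 7 of 60. Whether a probe also binds the transcripts of its relatives was not tested.

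Igfals, a carrier of circulating insulin-like growth factors, was also among the sex-dependent genes past 2-fold. Its signal was 164.5 with BSO plus RGZ and 347.8 with RGZ, 254.0 with BSO plus TGZ and 223.7 with TGZ, and 674.9 with vehicle, 2.11-fold lower (1.60 to 2.79). Its normexp value was -0.95 on the log2 scale. BSO plus RGZ had the lowest of the 5 Igfals signals.

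Cytochromes P450 of families 1 to 3 showed a small, broad shift. Of 39 genes none was at least 2-fold higher or lower, but 4 lay above 0 and the median log2 difference was -0.24. Cyp2b13, a female-predominant form, was at 1248 with BSO plus RGZ and 2383 with RGZ (-0.93), and Cyp2c44 at 179.7 and 314.7 (-0.81). Cyp2a4 at 0.49 and Cyp2a5 at 0.41 were the members farthest up. Interferon-stimulated genes shifted alike. None of 30 passed 2-fold in either direction, 4 lay above 0, and the median was -0.25, with Rsad2 at -0.76, Ifit1 at -0.71 and Gbp2 at 0.55. Markers of T, B and natural killer cells, 10 of 14 with a value, were lower as well. None of the 10 lay above 0 or passed 2-fold, their median was -0.21 (-0.07 with normexp), and Cd8a, Cd79a, Ncr1 and Klrb1c were not above background. Their summed signal was 2692 with BSO plus RGZ and 3082 with RGZ, and their part in the interferon list was not tested. Respiratory chain subunits had none of 32 past 2-fold and 2 above 0, with a median of -0.07. Under median scaling that median was 0.02, a move of the size of the shift over all genes.

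Growth-related genes did not point one way. Of 24 ribosome biogenesis genes attributed to MYC none was at least 2-fold higher and 1 was at least 2-fold lower, which was Myc itself. Myc was at 15.7 with BSO plus RGZ and 31.5 with RGZ, 87.0 with BSO plus TGZ and 102.3 with TGZ, and 9.18 with vehicle, just past 2-fold lower on RGZ (interval 1.46 to 2.75), or -0.40 on the log2 scale with normexp. The mean over its 2 probes, which differ in direction, was -0.47 and not past 2-fold. The list's median was 0.28, with 22 of 24 above 0, and Rrp12 at 0.64 and Ddx21, a nucleolar helicase, at 0.63 were farthest up. Immediate early genes had 1 of 22 at least 2-fold higher, Ier3 at 1.27 (0.60 with normexp), and 2 at least 2-fold lower, Egr1 at -1.43 and Myc. Egr1, a growth factor-induced zinc finger factor, was at 56.6 with BSO plus RGZ and 152.2 with RGZ, 705.0 with BSO plus TGZ and 1127 with TGZ, and 238.1 with vehicle. Of 24 p53 targets with a value Cdkn1a alone passed 2-fold, and none was at least 2-fold lower. Cdkn1a, the cyclin kinase inhibitor p21, was at 397.3 with BSO plus RGZ and 175.3 with RGZ, 3409 with BSO plus TGZ and 4392 with TGZ, and 53.1 with vehicle, 2.27-fold higher on RGZ (1.72 to 2.99).

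The genes farthest down and up also included several secreted or transport proteins. Dmbt1, a mucosal scavenger receptor protein that also served as a bile duct marker, was at 75.8 with BSO plus RGZ and 305.7 with RGZ, 1927 with BSO plus TGZ and 1414 with TGZ, and 1577 with vehicle. It was 4.03-fold lower on RGZ (3.05 to 5.33), and both RGZ arrays were below the other 3. Bile duct markers, 7 of 10 with a value, had a median of -0.33 (-0.05 with normexp), 1 at least 2-fold lower (Dmbt1), none higher, and Krt7, Epcam and Slc5a1 not above background. Their summed signal without Dmbt1 was 498.8 with BSO plus RGZ and 602.5 with RGZ, and Krt19 was at -0.90 (-0.26 with normexp). Of the 7, 2 lay above 0, among them Sox9, a factor of bile duct cells, at 46.5 with BSO plus RGZ and 35.3 with RGZ (0.40, or 0.04 as the mean over its probes). The part of bile duct cells in the Dmbt1 difference was not tested. Krt23, a keratin, was at 147.2 with BSO plus RGZ and 449.7 with RGZ, 3.06-fold lower (2.31 to 4.03). Slc26a4, an anion exchanger, was at 8.48 and 28.9, 3.40-fold lower (2.23 to 5.20), or -0.59 on the log2 scale with normexp. Cgref1, a secreted protein with EF-hands, was at 476.7 with BSO plus RGZ and 189.2 with RGZ, 2.52-fold higher (1.91 to 3.33).

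The remaining lists held few genes past 2-fold. Among glucuronosyltransferases and sulfotransferases 1 of 27 was at least 2-fold higher, Ugt2b35 at 2.45-fold (1.85 to 3.23), and the median was -0.01 (0.07 under median scaling and 0.03 under spike-in scaling). Of 25 genes of bile acid synthesis, sensing and transport none passed 2-fold, 6 lay above 0, and the median was -0.13, with Cyp7a1, the rate-limiting enzyme, at -0.73. Of 20 clock genes 3 lay above 0, 1 was at least 2-fold lower (Rgs16), and the median was -0.22. Gluconeogenesis and insulin targets had none of 22 past 2-fold and a median of -0.17. Cell cycle genes had 1 of 22 at least 2-fold lower, Mcm5, a bound, and a median of 0.04. Metallothioneins, iron and heme genes had a median of 0.07 and amino acid transporters one of -0.10, with none past 2-fold. The 27 genes of the hypoxia and glycolysis list with a value had a median of 0.02. Medians of other cell markers were -0.05 for Kupffer cells and macrophages (0.03 under median scaling), 0.00 for sinusoidal endothelium and -0.11 for stellate cells and fibroblasts. They were 0.08 for erythroid cells (5 of 8 with a value), -0.09 for adipocytes (6 of 10) and 0.19 for pancreas (6 of 11). The summed pancreas signal was 1421 with BSO plus RGZ and 1650 with RGZ. By the brightest probe no marker in these 6 lists passed 2-fold. The adipocyte marker Car3 was at -0.95, or -1.42 as the mean over its probes.

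Other genes that the rule names were mostly dim. Among the 20 measured genes farthest up, Pak3, Lrrc14b, Samd4, Crybb3, Ydjc, Best1, Atp6v0a4, Kbtbd12, Atg9b, Tchh and Hfm1 had signals of at most 93.8 with BSO plus RGZ. Of these, Lrrc14b and Samd4 were past 2-fold with normexp as well, at log2 differences of 1.09 and 1.06, and Pak3, at 1.90, was at 0.93 as the mean over its probes. In the other direction, Mfsd4a was at -1.65, Col27a1 at -1.49, Ngef at -1.36 and Nrep at -1.90, with Nrep at 166.0 with BSO plus RGZ and 618.5 with RGZ. With normexp these were -0.81 for Mfsd4a, -0.59 for Col27a1, -1.32 for Ngef and -1.70 for Nrep. The clock output gene Rgs16 was at 471.3 with BSO plus RGZ and 1058 with RGZ, 2.25-fold lower (1.70 to 2.96), against 4156 with vehicle. The largest bounds higher were Pfn4 at 4.51-fold or more and Gm32280 at 3.60-fold or more. The largest bounds lower were Olfr1262 at 10.1-fold or more, Triml1 at 5.96-fold or more and Enthd1 at 5.07-fold or more. With normexp their log2 differences were 0.71 for Pfn4, 0.60 for Gm32280, -1.32 for Olfr1262, -0.85 for Triml1 and -0.73 for Enthd1, so Olfr1262 alone of these 5 stayed past 2-fold. Olfr1262, Triml1 and Enthd1 were above background with RGZ alone among the 5 arrays, at signals of 53.6, 31.6 and 26.9. Their spots are neighbours on the array, at row 347 and column 84, row 345 and column 84, and row 344 and column 83. The part of this location in their differences was not tested.

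**Figure D3:**
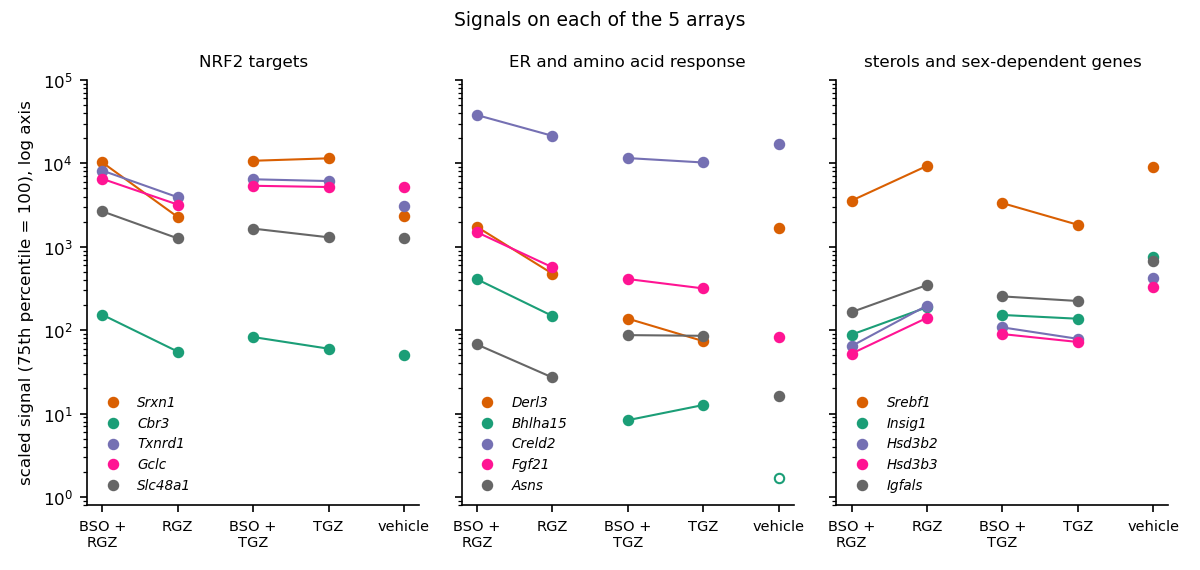
Scaled signal of 15 genes on each of the 5 arrays (log axis), with a line joining the array with BSO to the array without it for each thiazolidinedione. The open point marks a signal not well above background. Srxn1 was high on 3 arrays and at the vehicle level with RGZ, and Hsd3b2, Hsd3b3 and Insig1 were lowest with BSO plus RGZ.

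BSO had been given with TGZ as well, on arrays that share no sample with the RGZ pair. Across the 18663 genes measured in both, the log2 differences of BSO on RGZ and of BSO on TGZ had a Pearson r of -0.01 and a Spearman rho of 0.00. Genes are not independent replicates, so these correlations are a description. With BSO plus TGZ, 326 genes were at least 2-fold higher than with TGZ (1.56% of genes with a value) and 103 at least 2-fold lower (0.494%), together 2.06%. Of the 110 genes higher on RGZ 73 had a value on TGZ, and 7 were also at least 2-fold higher on TGZ (6.4% of the RGZ genes and 2.1% of the TGZ genes), and none was at least 2-fold lower there. Of the 151 lower on RGZ 114 had a value on TGZ, and 2 were also at least 2-fold lower on TGZ (1.3% and 1.9%), and 7 were at least 2-fold higher there. Saa3, Cgref1 and Lrrc14b were past 2-fold higher in both, at 1.69, 1.21 and 1.06 on the log2 scale on TGZ.

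The same gene groups had the following values on each compound. NRF2 targets had a median of 0.32 on RGZ and 0.02 on TGZ, with Srxn1 at 2.17 and -0.10, Txnrd1 at 1.06 and 0.07 and Gclc at 1.03 and 0.05. Hmox1 was at 0.39 on RGZ and 1.10 on TGZ. Endoplasmic reticulum chaperones had medians of 0.28 and 0.09, the integrated stress response 0.08 and -0.33, and cholesterol genes -0.26 and 0.15. Fasn was at -0.60 on RGZ and 2.09 on TGZ, Srebf1 at -1.38 and 0.86, and Hsd3b2 at -1.61 and 0.46. With 1 array per group the differences between these BSO effects were not tested.

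**Figure D4:**
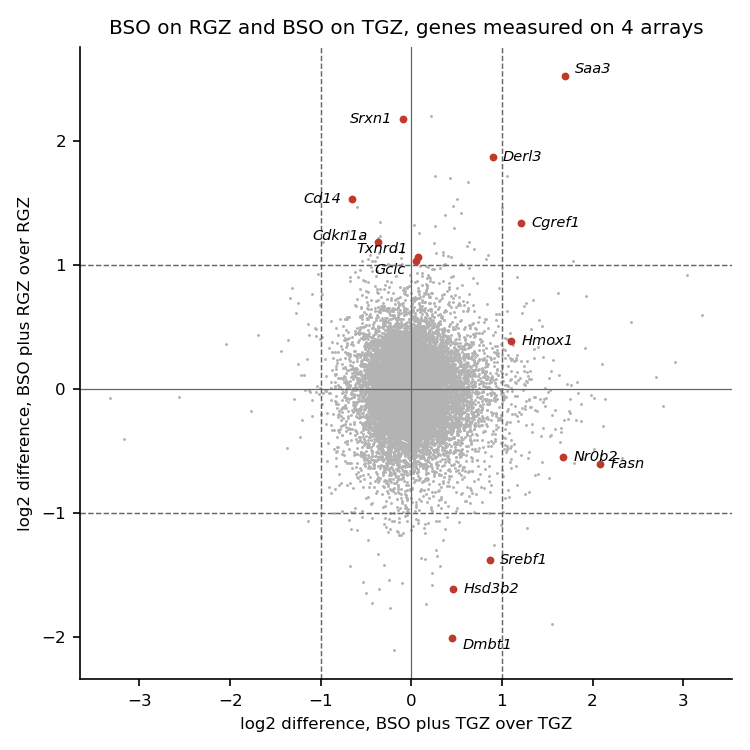
Log2 difference of BSO plus RGZ over RGZ (vertical axis) against that of BSO plus TGZ over TGZ (horizontal axis), 1 point per gene measured on all 4 arrays, with dashed lines at 2-fold. The cloud has no slope (Pearson r of -0.01), and Saa3 and Cgref1 lie past 2-fold on both axes.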

How the data were processed

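Per the labels, RNA of 6 livers per group was pooled, Cy3-labelled and hybridised to 1 array. The deposited array files give spot intensity, which the authors processed with Agilent Feature Extraction 12.0.3.1 (background subtraction and detrending, per the file headers) without scaling arrays to each other. A deposited table of log2 values matched log2 of those signals up to 1 constant per array, and the sources used here do not name the software of that step. The 75th percentile of that table was 7.47 on every array, so it is scaled as the main values are. Drug names come from the title and general knowledge.

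Spots flagged as outliers were left out, and 8 probes of 56605 that lost all spots on at least 1 array were dropped. Among these was a probe of Sulf2. With flagged spots kept, it was at 189.1 with BSO plus RGZ and 1396.1 with RGZ, a log2 difference of -2.88. Spots of a probe were averaged, and log2 values scaled to the 75th percentile. A gene was represented by its brightest probe. Where it was not well above background on 1 array, the lowest signal called well above background there replaced any signal below it. The resulting difference is called a bound. A dim signal above that level was kept, as for Hsd3b5 and Mcm5, and the bound is then a plain ratio. All arrays shared 1 slide and 1 scan time, and no spot was saturated. Probe coordinates are mm9, per the file headers, and promoters are from RefSeq. Python 3.11.15 and limma 3.58.1 (normexp, offset 50) were used, and the code was tested on simulated data.

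Members, the 40 gene lists (887 genes, 882 matched) and rules were chosen with earlier results of these data known. Named were the 20 largest measured differences each way with probes in 1 direction and a RefSeq symbol, the 5 largest bounds each way, list members past 2-fold with up to 4 others per list, and all glutathione genes. Other list members were named for their role after their values were seen. Alternatives were other background correction, scaling, filters, probe choice and fold limits. A few genes that the rule names are not reported here.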

Additional observations from a re-analysis of the deposited data

How the results depend on the processing

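No paired analysis was possible because each group is 1 pool on 1 array and no test was run. The main counts were 110 genes higher and 151 lower with BSO plus RGZ. They came to 22 and 21 with normexp background correction, 1126 and 1351 with no filter on dim probes, 68 and 88 both with signal required on both arrays and with the submitters' filter, 630 and 873 at 1.5-fold, and 5 and 7 at 4-fold. Median scaling gave 154 and 101, spike-in scaling 130 and 130, quantile normalization 133 and 110, the authors' deposited log2 values 108 and 152, and the mean over probes 106 and 141. Keeping flagged spots, an alternative added after seeing the data, gave 111 and 151. Of 69 named genes past 2-fold, 29 stayed past it with normexp and none changed sign under any alternative. Median scaling, spike-in scaling and the deposited values shift all genes alike, and the filters reuse the same values. Those alternatives could therefore not have turned the sign of such a gene. Of the 40 list medians, 2 moved by at least 0.20, the median measurement SD of a single gene's log2 difference, a coarse limit for a median. The neutrophil median was 0.14 with normexp and 0.13 with both stricter filters, against 0.40, and the bile duct median was -0.05 with normexp, against -0.33. Smaller moves with normexp were -0.07, against -0.21, for T, B and natural killer cells and 0.06, against 0.12, for glutathione synthesis, recycling and breakdown. Median scaling moved the median of all genes to 0.09, against 0.01, and gave -0.03 for PPAR alpha targets, -0.04 for fatty acid synthesis and -0.10 for growth hormone and sex-dependent genes, against -0.11, -0.12 and -0.18. With 1 pool per group no replicate could be left out. Signal near background limits the dim genes.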

Other observations

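Some further genes past 2-fold lay outside the rule for named genes and were chosen after their values were seen. The array's 1200007C13Rik was at 132.5 with BSO plus RGZ and 28.8 with RGZ, 921.6 with BSO plus TGZ and 794.6 with TGZ, and 5.11 with vehicle, 4.60-fold higher on RGZ (3.44 to 6.15). In the other direction, 8430408G22Rik was at 20.4 with BSO plus RGZ and 88.0 with RGZ, 311.8 with BSO plus TGZ and 356.4 with TGZ, and 626.7 with vehicle, 4.31-fold lower on RGZ (3.19 to 5.83).

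Metabolic and transport genes were among them. Cyp26b1, which clears retinoic acid, was at 1621 with BSO plus RGZ and 712.3 with RGZ, against 1600 with vehicle. Slc13a5, a citrate transporter, was at 750.4 with BSO plus RGZ and 367.5 with RGZ, against 52.6 with vehicle, and Ppp1r3c, which targets a phosphatase to glycogen, at 636.3 and 311.9, against 457.1 with vehicle. Adora1, an adenosine receptor, was at 1379 with BSO plus RGZ and 641.2 with RGZ, against 514.3 with vehicle. Kyat1, a cysteine conjugate beta-lyase that acts on products of glutathione conjugation, was at 2973 with BSO plus RGZ and 6729 with RGZ, 5499 with BSO plus TGZ and 5942 with TGZ, and 10890 with vehicle. It was 2.26-fold lower on RGZ (1.72 to 2.99), the lowest of the 5 arrays. Tk1, thymidine kinase, was at 121.3 with BSO plus RGZ and 255.9 with RGZ, against 925.8 with vehicle.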
